A study of Mus musculus with 8 samples.

Results

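Cd73-negative cells (Cd73NC) of the mouse retina were compared between postnatal day 5 (P5) and postnatal day 8 (P8). The members of the comparison were the rows with an FPKM (a read number scaled by transcript length and by all mapped fragments) of at least 1 in either Cd73NC library, with small RNAs left out. They numbered 12593 of the 23021 rows in each table, and 11595 of them reached FPKM 1 at both stages, 423 at P5 only and 575 at P8 only. The row just inside the limit was Col4a6, at FPKM 1.001 at P5 and 0.878 at P8, and the row just outside was Cnnm1, at 0.0476 and 0.998.

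The study sequenced RNA of 8 libraries, namely whole retina at embryonic days 15 and 18 and the Cd73-positive (Cd73PC) and Cd73-negative fractions at P2, P5, and P8. Both libraries compared here came from retinas of slc:ICR mice kept under normal feeding, with no genetic change or treatment in either group. Retinas of several pups were pooled, dissociated with trypsin, stained with an anti-Cd73 antibody, and sorted. Each condition had 1 library, so the spread between animals or sorts is unknown, and no test, standard error, or p-value could be given for any difference.

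Cd73 is a cell-surface ectonucleotidase, encoded by Nt5e, that marks rods and their precursors in the developing retina. The negative fraction is therefore a mixture of what the antibody does not stain, which can include dividing progenitors, bipolar, amacrine, horizontal, and ganglion cells, Müller glia, and cells of vessels and blood. Bipolar cells and Müller glia are the last-born cells of the mouse retina. Bipolar cells relay the photoreceptor signal to the inner retina, and Müller glia recycle glutamate and retinoids and span the retinal layers.

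Throughout, the ratio of a gene is the log2 of (FPKM + 1) at P8 over (FPKM + 1) at P5, and a gene is called higher or lower at P8 when it passed 1.5-fold on that scale. By this rule 1777 rows (14.1%) were higher at P8 and 1657 rows (13.2%) were lower. The remaining 72.7% stayed within 1.5-fold, and the median ratio of the members was -0.04. Large differences were mostly rises: 239 rows were at least 4-fold higher against 64 at least 4-fold lower, and 70 were at least 8-fold higher against 5 at least 8-fold lower. The 5 include Pisd-ps1 and Bc1, a short noncoding RNA that was not left out with the small RNAs, and the 70 include Gm12238 and LOC100302567. The values of these rows are uncertain. In Cd73PC over the same days, 5.92% of 11669 rows were higher and 8.54% were lower. A change in a mixed fraction can come from the number of cells of a type or from the RNA in each cell, and these cannot be told apart here.

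The sorted antigen and the cell-type markers were examined first. Nt5e was at FPKM 31.4 at P5 and 9.38 at P8 in Cd73NC, and at 131 and 124 in Cd73PC. Rod transcripts were present in Cd73NC at both stages, at a median over the 22 genes of the rod list of 11.4% of the Cd73PC level at P5 and 7.42% at P8. The share was smaller at P8 for 21 of the 22 genes.

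Several markers of bipolar cells and Müller glia were abundant at P8, such as Isl1 at FPKM 294 and Glul at 165, although Aqp4 of Müller glia was at 1.99. Several markers that define other inner retinal neurons were at or near 0. Others were not, with Pax6 and Slc6a9 of the amacrine list at 27.7 and 10.4 at P8. Of the amacrine genes, Chat and Vip were listed at 0 at both stages, Th was at 0.0741 and 0, and Gad1, a GABA-synthesizing enzyme, was at 0.152 and 0.217. Of the ganglion cell transcription factors, Pou4f1 was at 0.401 and 0.171, Pou4f2 at 0.0383 and 0.0146, and Pou4f3 was listed at 0. Of the horizontal cell genes, Lhx1 was at 0.0452 and 0, and Calb1 at 0.0216 and 0.0329. Over the whole lists, 17 of 26 amacrine genes, 2 of 7 horizontal cell genes, and 6 of 15 ganglion cell genes reached FPKM 1 in either library. The summed FPKM of the amacrine list was 249.4 at P5 and 96.7 at P8, and that of the ganglion list was 19.3 and 8.10. That of the horizontal list was 43.8 and 168, nearly all of it Prox1, which other cells express as well.

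**Figure D1:**
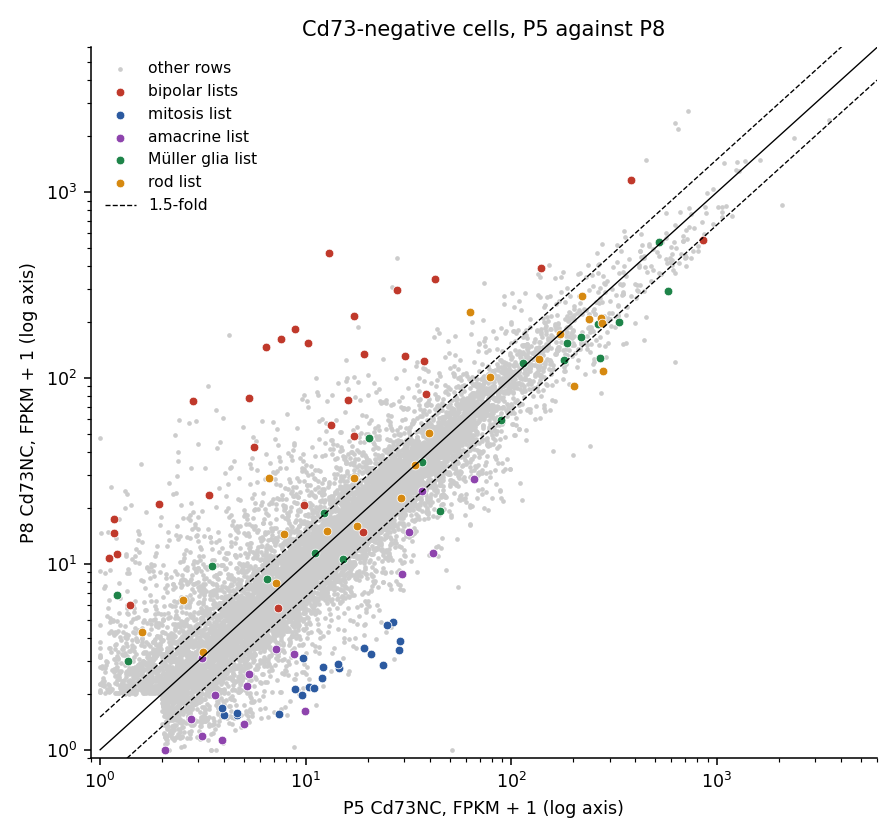
FPKM + 1 of the 12593 member rows in P5 Cd73NC (x axis) and P8 Cd73NC (y axis), both on log axes, with the solid line at equality and dashed lines at 1.5-fold; the gap at the lower left is the FPKM limit of 1. Genes of the bipolar lists (red) lie mostly above the upper dashed line, all 22 mitosis genes (blue) and 16 of 17 amacrine members (purple) lie below the lower one, and Müller glia (green) and rod (orange) genes are spread around equality.

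Bipolar genes made up the clearest rise. The 3 lists of bipolar transcription factors, ON bipolar signalling, and other bipolar genes held 31 genes. Of these, 28 were higher at P8 and 1 was lower, against 14.1% and 13.2% of all rows. Their median ratio was 2.93 against -0.04 over all rows. Their median FPKM in Cd73NC climbed from 1.39 on P2 over 9.28 on P5 to 77.4 on P8. In Cd73PC it was 2.90 at P5 and 11.96 at P8, and the median gene of the 3 lists stood at 37.8% of its Cd73NC level at P5 and 11.9% at P8.

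The transcription factors set the identity of bipolar cells and their subtypes. Isl1, a LIM-homeodomain factor of ON bipolar cells (chr13:117088478-117099896 in mm9), went from FPKM 26.8 to 294, a ratio of 3.41. Vsx1, a homeodomain factor of cone bipolar cells (chr2:150506440-150514873), went from 9.28 to 153, a ratio of 3.90. Bhlhe23, a bHLH factor needed for rod bipolar maturation, went from 18.1 to 134, a ratio of 2.81. All 3 were low in Cd73NC at P2, at 4.79, 0.00119, and 0, so that each was higher in every later library of this fraction.

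Otx2, which photoreceptor and bipolar precursors share, was the only factor of the 10 that was lower, at 851 and 552, with a ratio of -0.62. Irx5 was within 1.5-fold, at 17.9 and 13.9. In all, 8 of the 10 were higher, against 14.1% of all rows, and the list median was 2.09.

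The ON bipolar signalling list follows the cascade that inverts the light signal at the bipolar dendrite: glutamate binds the receptor mGluR6 (Grm6), the G protein closes the channel Trpm1, and RGS proteins end the signal. Of its 11 genes, 10 were higher at P8 and none was lower, against 14.1% and 13.2% of all rows. The median ratio of the list was 2.998. Grm6 (chr11:50664187-50679710) went from FPKM 6.58 to 162, a ratio of 4.42, and was at 0 in Cd73NC at P2. Trpm1 (chr7:71298721-71414645) went from 1.83 to 74.0, a ratio of 4.73, the largest of the list. The receptor and its channel thus reached FPKM 162 and 74.0 together, from single-digit levels 3 days earlier.

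The G protein subunits moved by different amounts. Gng13, the gamma subunit, went from 5.41 to 146, a ratio of 4.52, while Gnao1, the alpha subunit, went from 41.4 to 337. Gnb3, the beta subunit shared with cones, was already at 139 at P5 and reached 388, a ratio of 1.47. In Cd73PC, Gng13 was at 10.2 and 22.2 and Gnb3 at 236 and 255, so that both were higher there than in Cd73NC at P5. The scaffold and regulator genes reached lower levels: Gpr179 went from 4.31 to 77.4, Nyx from 2.37 to 22.4, and Rgs11 from 0.926 to 20.003. Lrit3, a leucine-rich repeat protein needed for Trpm1 localization, was the exception, at 6.30 and 4.80 in Cd73NC, within 1.5-fold, and at 5.89 and 18.4 in Cd73PC.

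All 10 of the other bipolar genes were higher at P8, against 14.1% of all rows. Their ratios lay between 1.08 and 5.17, with a median of 3.46. Pcp2, a modulator of the G protein in ON bipolar cells (chr8:3623371-3625545), went from FPKM 11.99 to 468, a ratio of 5.17. Cabp5, a calcium-binding protein of bipolar cells, went from 7.85 to 183, a ratio of 4.38. Cabp2, a related protein, went from 0.163 to 16.5, a ratio of 3.91, and was at 4.82 and 10.7 in Cd73PC. Scgn, a calcium sensor of cone bipolar subtypes, went from 16.2 to 214, and Prkca, the kinase that marks rod bipolar cells, went from 4.61 to 41.7. Genes of both rod bipolar and cone bipolar cells were therefore among those that were higher.

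Promoter sequences of the bipolar genes were searched for TAATCC, the core recognized by Otx-type homeodomain proteins, on both strands of windows from 250 bases before to 50 bases after the annotated start (RefSeq, GRCm38.p6). RefSeq windows were found for 23 of the 31 genes, and 7 of their 33 windows (21.2%) held the motif, against 7.06% of all 32851 windows. In the rod list 5 of 14 windows (35.7%) held it, and in the Müller glia list 2 of 18 (11.1%). The 120 bases before the start of the 2 genes with the largest ratios among those with the motif in that stretch are shown, with the motif or its reverse complement in capitals. The first lies at chr7:64153715-64153834 and the second at chr7:13398035-13398154, both on the plus strand of GRCm38.p6.
Trpm1: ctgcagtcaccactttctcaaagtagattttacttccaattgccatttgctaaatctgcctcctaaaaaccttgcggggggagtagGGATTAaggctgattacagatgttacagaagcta
Cabp5: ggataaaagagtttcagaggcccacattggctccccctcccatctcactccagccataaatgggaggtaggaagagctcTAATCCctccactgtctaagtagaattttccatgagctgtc
A match is a description of the letters only, and most bipolar windows did not hold it.

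**Figure D2:**
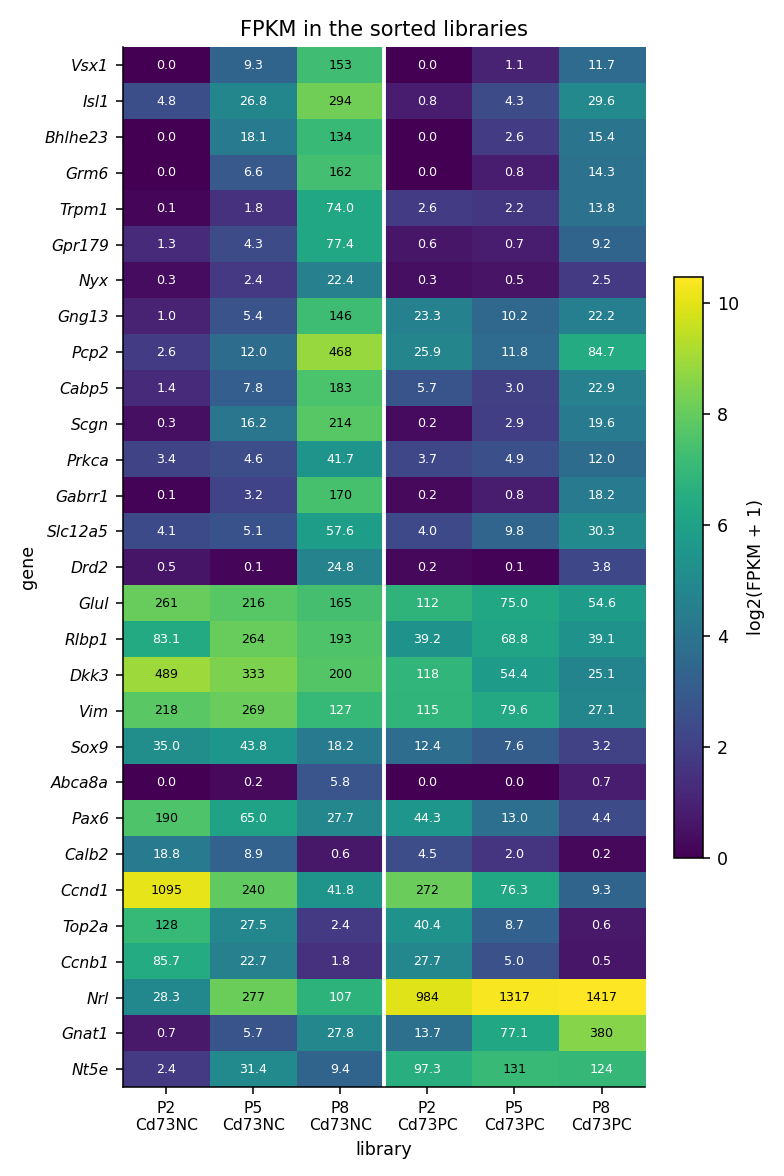
FPKM (printed in each cell) of named genes (rows) in the 3 Cd73NC and 3 Cd73PC libraries (columns), coloured by log2(FPKM + 1). Bipolar genes such as Grm6 (6.58 and 162) and Isl1 (26.8 and 294) brighten between P5 and P8 Cd73NC, while Top2a (27.5 and 2.44) and Ccnb1 (22.7 and 1.85) darken.

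The 12 largest rises among genes with FPKM of at least 5 and bounds that did not overlap were Gabrr1, Pcp2, Qpct, Trpm1, Pcp4l1, Gng13, Drd2, Slc4a10, Grm6, Eef1a2, Sebox, and Cabp5. The same 12 were named when only genes at least 1.5-fold higher in Cd73NC than in Cd73PC at P8 were taken. That filter uses the same P8 Cd73NC values, and 1264 of the 1777 rows called higher (71.1%) passed it, so the repeat is not separate support. Of the 12, 5 belong to the bipolar lists. Gabrr1, a subunit of the GABA-C type of ionotropic GABA receptor (chr4:33219531-33250563), had the largest ratio, 5.33, and went from FPKM 3.25 to 170. Qpct, a glutaminyl cyclase, went from 2.34 to 89.1, and Drd2, a dopamine receptor, from 0.128 to 24.8. Slc4a10, a sodium bicarbonate transporter, went from 0.576 to 33.3, and Eef1a2, the elongation factor form of mature neurons, from 1.31 to 48.3.

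Receptor and release genes were mostly higher as well. Of the 18 members of the list of transmitter receptors and chloride transporters, 13 were higher at P8 and 1 was lower. These counts stand against 14.1% and 13.2% of all rows. The median ratio of the list was 2.07, and 1.52 without the FPKM limit. Besides Gabrr1, the related subunit Gabrr2 went from FPKM 0.196 to 12.8. Slc12a5, the chloride extruder KCC2 on which GABA inhibition depends, went from 5.15 to 57.6, a ratio of 3.25, while Slc12a2, which loads chloride into immature neurons, was at 8.61 and 7.72. Glra2, the glycine receptor subunit of immature neurons, was lower, at 3.71 and 1.04.

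Of the 19 members of the list of synaptic vesicle and release genes, 14 were higher and 1 was lower. Among all rows 14.1% were higher and 13.2% lower. The median ratio of the list was 1.11. Dnm1, the dynamin of vesicle recycling, went from 11.1 to 58.9. Sv2a, a vesicle glycoprotein, went from 16.4 to 78.4, and Syn1, a synapsin, from 8.33 to 36.1. Syp, a vesicle protein, was the most abundant, at 261 and 468. Cplx2, a complexin, was the member that was lower, at 144 and 65.4. In Cd73PC the list median was 0.17, and Sv2a was at 32.0 and 34.9 there.

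Cell division genes were lower without exception. All 22 genes of the mitosis list were lower at P8, against 13.2% of all rows. Their ratios lay between -3.06 and -1.23, with a median of -2.31. Ccnb1, the cyclin that drives entry into mitosis (chr13:101548694-101556441), was at FPKM 22.7 at P5 and 1.85 at P8. Top2a, the topoisomerase of chromosome condensation (chr11:98854261-98885503), was at 27.5 and 2.44, and Ccna2, cyclin A, at 27.6 and 2.85. In Cd73NC the median FPKM of the list dropped from 52.4 on P2 to 11.1 on P5 and 1.77 on P8, and in Cd73PC it was 3.75 on P5 and 0.662 on P8, so that the P8 level was low in both fractions.

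Replication genes were lower by a smaller amount. Of the 24 genes of the DNA replication list, 17 were lower at P8 and none was higher, against 13.2% and 14.1% of all rows. The median ratio of the list was -0.95. Uhrf1, which keeps DNA methylation through replication, was at 15.0 and 1.56, Rrm2, a subunit of ribonucleotide reductase, at 13.3 and 1.98, and Tk1, thymidine kinase, at 7.75 and 1.39. Pcna, the polymerase clamp, was still at 45.9 at P8, from 87.0. Dnmt1, the maintenance DNA methyltransferase, was at 26.6 and 35.3, within 1.5-fold.

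Promoter windows of the mitosis genes were searched for TTTGAA, the core of the cell cycle homology region, and for CCAAT, both on either strand, with at most 1 shared base between the motifs. RefSeq windows were found for 19 of the 22 genes, and 15 of their 20 windows held TTTGAA, against 17.9% of all windows. CCAAT was in 17 of the 20 against 37.4%, and both were in 14, against 6.95%. In the DNA replication list 4 of 27 windows (14.8%) held TTTGAA and 16 (59.3%) held CCAAT. The 120 bases before the start are shown for the 3 genes with the lowest ratios among those with both motifs in that stretch, with the motifs in capitals. They lie at chr11:99024190-99024309 (minus strand), chr4:118437344-118437463 (minus strand), and chr7:80294356-80294475 (plus strand) of GRCm38.p6.
Top2a: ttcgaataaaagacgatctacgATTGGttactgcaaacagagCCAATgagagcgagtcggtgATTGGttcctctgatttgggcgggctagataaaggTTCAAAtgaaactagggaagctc
Cdc20: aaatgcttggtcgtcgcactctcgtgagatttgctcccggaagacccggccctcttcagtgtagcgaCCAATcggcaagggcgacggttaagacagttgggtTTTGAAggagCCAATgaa
Prc1: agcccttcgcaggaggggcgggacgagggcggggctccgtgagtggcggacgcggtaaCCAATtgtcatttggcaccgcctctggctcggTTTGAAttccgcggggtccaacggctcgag
Top2a held 3 CCAAT matches and 1 TTTGAA match in this stretch, Cdc20 held 2 and 1, and Prc1, a protein of the central spindle, held 1 of each. Cdc20, the activator of the anaphase-promoting complex, was at FPKM 25.7 and 3.86, and Prc1 at 18.3 and 2.54.

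Progenitor and neurogenic genes were lower as well. Of 23 genes, 20 were lower at P8 and none was higher, against 13.2% and 14.1% of all rows. The median ratio of the list was -1.62. Ccnd1, the D cyclin of retinal progenitors, was at FPKM 240 at P5 and 41.8 at P8, a ratio of -2.50. Fgf15, a growth factor of progenitors, was at 18.1 and 3.15. Hes6, a bHLH factor of differentiating cells, kept the highest level of the list, at 359 and 153. The same list had a median ratio of -1.08 in Cd73PC.

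The 12 largest falls by the same rule as the rises were St14, Pisd-ps1, Ccnb1, Top2a, Ccna2, Epha8, Ebf3, Mki67, Uhrf1, Calb2, Pbk, and Racgap1. The same 12 were named when only genes at least 1.5-fold higher in Cd73NC than in Cd73PC at P5 were taken. This filter uses the same P5 Cd73NC values, and 988 of the 1657 rows called lower (59.6%) passed it. St14, the membrane protease matriptase, was at 25.9 and 2.06, and Epha8, an ephrin receptor, at 53.8 and 6.55; both were higher in P5 Cd73NC than in P2 Cd73NC, where they were at 12.04 and 21.0. Ebf3, a transcription factor of inner retinal neurons, was at 10.2 and 0.750. Pisd-ps1 is a pseudogene whose reads may be shared with near-identical copies, and its 7.78 and 0.0315 are uncertain. Pisd-ps3, whose row covers practically the same locus, went the other way, from 0.883 to 11.5, so that the fall cannot be read as a change of that locus.

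Most amacrine members were lower at P8. Of the 26 genes of the list 17 were members. Of these, 16 were lower, against 13.2% of all rows, and none was higher, with a median ratio of -1.20. Members such as Calb2 and Tfap2b reached FPKM 1 only at P5, where they were higher, so the FPKM limit favoured falls. Without that limit the list median was -0.98. Calb2, the calcium-binding protein calretinin, was at FPKM 8.86 and 0.607, and Pax6, the factor shared by progenitors, amacrine cells, and other neurons, at 65.0 and 27.7. Tfap2b, a factor of GABAergic amacrine cells, was at 4.01 and 0.371. Slc6a9, a glycine transporter, was at 40.7 and 10.4 in Cd73NC but at 72.3 and 50.7 in Cd73PC, higher in Cd73PC than in Cd73NC at both stages.

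Of the 7 horizontal cell genes only Prox1 and Onecut2 were members. Prox1, which bipolar cells and progenitors also express, went from 40.9 to 166, a ratio of 1.99, and Onecut2 was at 1.53 and 1.34. Of the 15 ganglion cell genes 6 were members, and Ebf3 and Isl2 were lower. Nefm, a neurofilament subunit, was at 1.39 and 0.841, and had been at 130 in whole retina at E15. The immature neuron list had 1 member higher and 6 lower of 13, against 14.1% and 13.2% of all rows, with a median of -0.26. Sox11 was at 18.3 and 3.67, Sox4 at 331 and 193, and Crmp1, a mediator of axon guidance, went the other way, from 91.1 to 276.

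**Figure D3:**
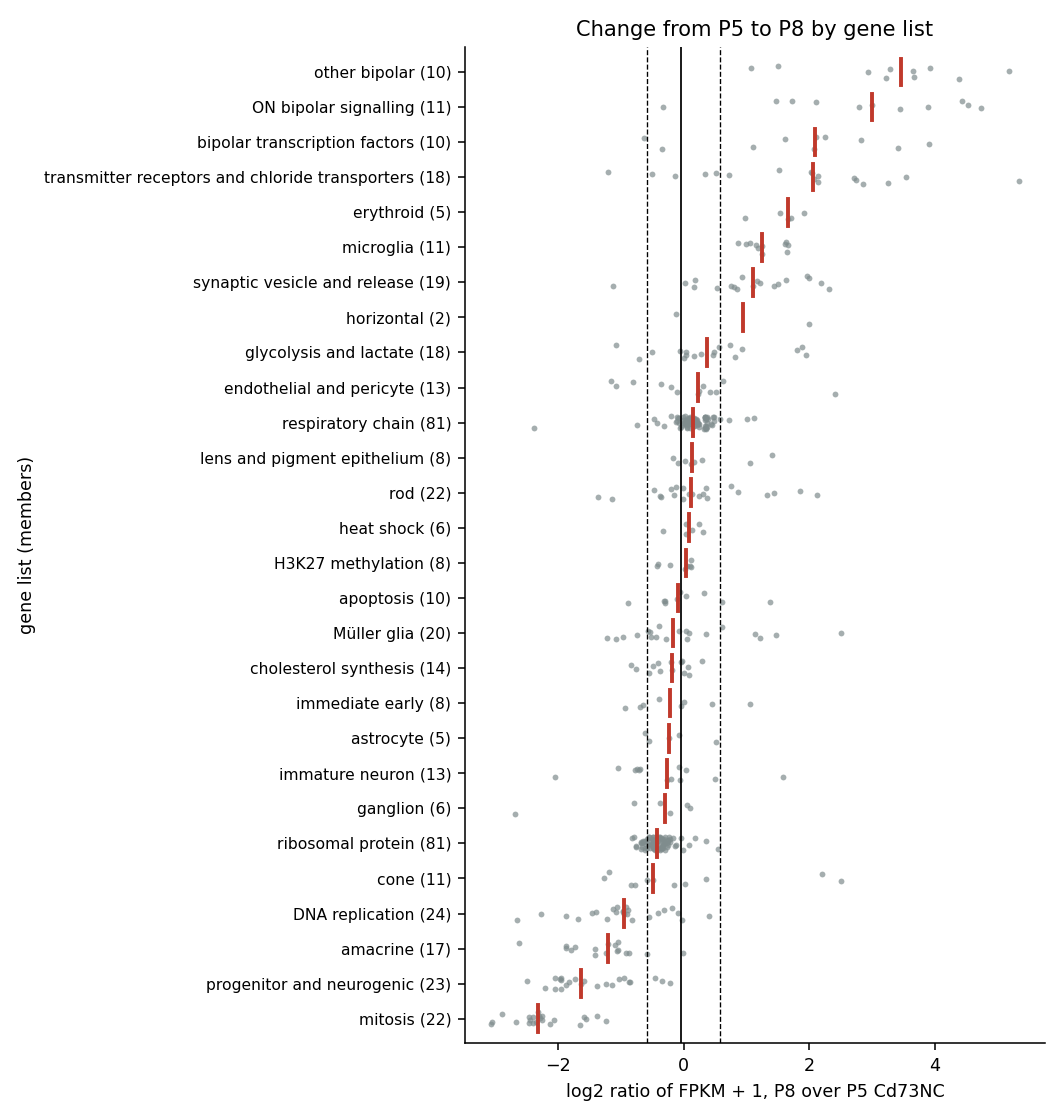
Log2 ratio of FPKM + 1 at P8 over P5 in Cd73NC (x axis) for the members of each gene list (rows, with the number of members), with red bars at the list medians, the solid line at the median of all rows (-0.04), and dashed lines at 1.5-fold. The 3 bipolar lists, at medians of 2.09 to 3.46, and the transmitter receptor list, at 2.07, lie at the top, and the mitosis list, at -2.31, lies at the bottom.

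Müller glia genes did not move in 1 direction. Of 20 genes, 5 (25%) were higher and 4 (20%) were lower at P8, against 14.1% and 13.2% of all rows. The median ratio was -0.17 in Cd73NC and -0.26 in Cd73PC. Glul, the glutamine synthetase of Müller glia (chr1:155747075-155756844), was at FPKM 216 and 165, a ratio of -0.38 that did not pass 1.5-fold. Rlbp1, the retinaldehyde-binding protein, was at 264 and 193. The genes that were lower were Sox9, Vim, Dbi, and Dkk3: Sox9 was at 43.8 and 18.2, and Vim at 269 and 127. Progenitors also express these genes, but whole retina at E15 also held Glul, at 176, and Slc1a3, at 52.1, neither called lower. Whether progenitors had a part in the falls was not tested.

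The Müller glia genes that were higher were Abca8a, Aqp4, Clu, Cav1, and Mlc1. Abca8a, a lipid transporter, went from 0.202 to 5.79, and Aqp4, the water channel of Müller endfeet, from 0.366 to 1.99. Clu, clusterin, went from 19.3 to 46.3 in Cd73NC and from 31.9 to 69.0 in Cd73PC. All 5 were below FPKM 20 at P5.

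Rod genes in Cd73NC also split. Of 22 genes, 6 (27.3%) were higher and 2 (9.09%) were lower, against 14.1% and 13.2% of all rows. The median ratio was 0.11, while the same genes had a median ratio of 0.87 in Cd73PC. Gnat1, rod transducin, went from FPKM 5.66 to 27.8 in Cd73NC and from 77.1 to 380 in Cd73PC. Nrl, the factor that specifies rods, was at 277 and 107 in Cd73NC and at 1317 and 1417 in Cd73PC. Of the cone genes 2 of 11 were higher and 4 lower: Opn1sw, the short-wavelength cone opsin, was at 99.4 and 55.2, and Pde6h, the inhibitory subunit of cone phosphodiesterase, at 3.08 and 22.2.

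**Figure D4:**
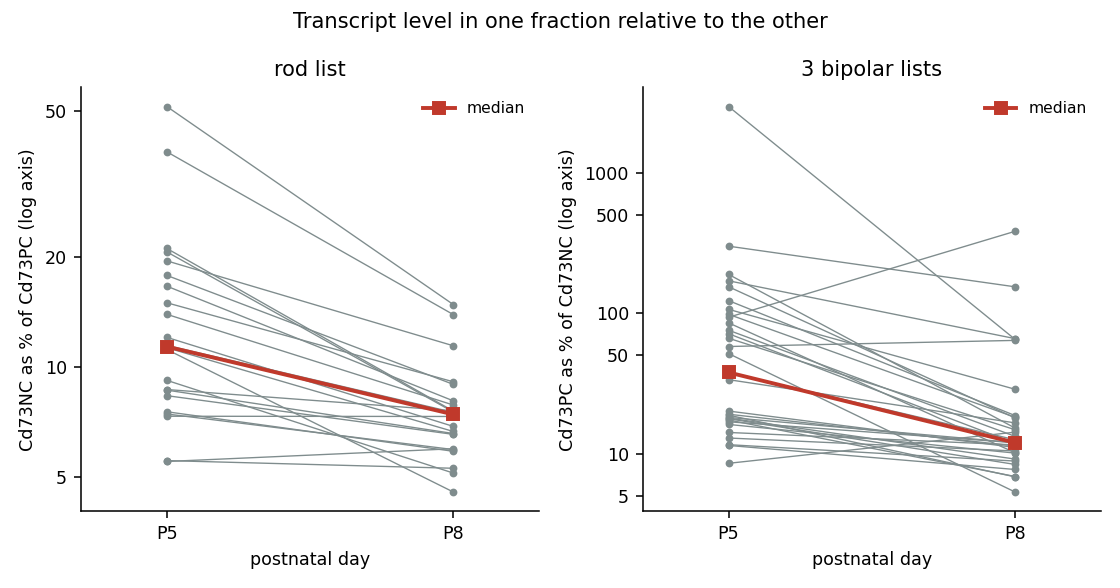
Level of each gene in one fraction as a percent of its level in the other (y axes, log scale) at P5 and P8, for the rod list (left, Cd73NC as a percent of Cd73PC) and the 3 bipolar lists (right, Cd73PC as a percent of Cd73NC). Grey lines are genes and red squares medians, which go from 11.4% to 7.42% for rod genes and from 37.8% to 11.9% for bipolar genes.

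Microglia and erythroid markers were higher at P8 in both fractions. All 11 members of the microglia list were higher at P8 in Cd73NC, against 14.1% of all rows. Their median ratio was 1.24 in Cd73NC and 1.37 in Cd73PC. C1qa, a complement subunit of microglia, went from FPKM 16.05 to 51.7 in Cd73NC and from 10.9 to 40.8 in Cd73PC. The 5 erythroid members were higher, at a median ratio of 1.65 in Cd73NC and 0.97 in Cd73PC, and the summed FPKM of that list went from 1305 to 4504. The median member in Cd73NC was Hbb-b1, whose row covers practically the same locus as Hbb-b2 and does not overlap its own annotated locus. The 5 members are therefore not 5 separate measurements. Hba-a1, an alpha globin, went from 725 to 2732, a value that is uncertain because its near-identical copy Hba-a2 can share its reads. The part of these cells in the other differences was not tested.

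The endothelial and pericyte list had 2 members higher and 3 lower of 13, against 14.1% and 13.2% of all rows, so that its count was near the background. Kdr, which encodes the endothelial VEGF receptor and is also made by retinal progenitors, was at 143 and 67.5, Cldn5, the tight-junction protein, at 9.49 and 3.72, and Esam, an endothelial adhesion molecule, at 1.64 and 13.0. In the astrocyte list Pdgfra, at 19.6 and 12.4, was the only one of 5 past 1.5-fold. In the lens and pigment epithelium list Rpe65, the retinoid isomerase of the pigment epithelium, went from 0.351 to 2.59 and Ttr, transthyretin, from 11.9 to 25.9, and both were also higher at P8 in Cd73PC, at 0.253 and 4.26 and at 15.95 and 44.4.

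Lists of general cell functions were examined next, beside the 14.1% higher and 13.2% lower over all rows. Of 18 glycolysis and lactate genes, 6 were higher and 2 lower: Hk1, a hexokinase, went from 26.3 to 99.4, Eno2, the neuronal enolase, from 33.7 to 121, and Slc2a3, the neuronal glucose transporter, from 3.40 to 15.9. Ldhb, lactate dehydrogenase B, was at 103 and 48.2. Ribosomal protein genes had a median ratio of -0.42 with 16 of 81 lower and none higher, and a median of -0.46 in Cd73PC. Rplp0, the acidic stalk protein, was at 703 and 397 in Cd73NC, and pseudogene copies can share reads with genes of this family.

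Respiratory chain genes had a median ratio of 0.15, with 4 of 81 higher and 2 lower, against 14.1% and 13.2% of all rows. Ndufa4l2, a hypoxia-regulated homologue of a respiratory chain subunit, stood apart, at 199 and 37.6. None of the 8 genes of H3K27 methylation and demethylation passed 1.5-fold: Kdm6b, the demethylase, was at 51.5 and 56.1, Eed, a subunit of the polycomb complex, at 14.7 and 10.7, and Ezh2, the methyltransferase, at 43.3 and 32.3. None of the 6 heat shock genes passed it either, with Hsph1, a chaperone, at 46.0 and 36.5. Over all rows 72.7% stayed within 1.5-fold.

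Immediate early genes had 1 member higher and 3 lower of 8: Fos went from 10.1 to 22.0, and Jun was at 57.8 and 36.5. Of 10 apoptosis members, 2 were higher and 1 was lower: Bbc3, a promoter of cell death, went from 2.21 to 7.28, and Bcl2l11, another, was at 8.18 and 3.99. Of 14 cholesterol synthesis genes 2 were lower, and Insig1, a sterol sensor, was at 20.1 and 11.5. Over all rows 14.1% were higher and 13.2% lower, so that the apoptosis and cholesterol synthesis counts were near the background.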

How the data were processed

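RNA of 1 library per condition was sequenced. The library protocol used random primers and short single-end reads, and did not mark strand as far as it is described, so reads of overlapping genes on opposite strands cannot be told apart. Per the labels and the study's methods, reads were aligned to mm9 with TopHat2 2.0.8b, after base calling with CASAVA 1.8.2 and bcl2fastq 1.8.4, and expression was estimated with Cufflinks 2.1.1. The authors deposited FPKM per gene with lower and upper confidence bounds. FPKM is divided by transcript length and by mapped fragments, so read counts and absolute depth are unknown and no interval or detection limit could be given. By the most common ratio (within 0.03 on the log2 scale) of 2176 rows below FPKM 0.3 in both libraries, the P8 library was estimated as 1.31 times as deep as the P5 library. Only 11.2% of these rows lay at that ratio, and the estimate takes those to hold equal read numbers in both libraries.

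Tables were joined on gene identifier and locus. Failed estimates (8 rows at P5 and 7 at P8) were taken as missing, and 797 small RNA rows were left out by symbol. Starts count from 0 in the files and 1 was added. Of 126 named genes with 1 annotated gene in an mm9 annotation, 125 overlapped its locus, and the exception was Hbb-b1. Ratios used a pseudocount of 1, and calls a limit of 1.5-fold, as in the study. Bounds covered only estimation error, and the FPKM lay outside its own bounds in 1573 member rows at P5 and 1923 at P8 (Isl1 at P8 had 294 and bounds of 267 and 279), so they served only to pick genes. Counting was tested on simulated data. Python 3.11 tools (pandas, numpy) were used.

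Named genes were the 12 largest ratios in each direction (FPKM of at least 5, 1 row per symbol, bounds apart), the same among genes 1.5-fold higher in Cd73NC than in Cd73PC, Isl1, Vsx1, Glul, and Nt5e, and up to 5 of each of 28 lists: the 3 largest ratios in the direction of the median, the largest in the other, and the highest FPKM. Defining markers and members that illustrate a group were added after their values were seen. The lists hold 548 genes, 4 matched through an older symbol, and for 4 with several rows the row with the highest mean was taken. Some genes that the rule names are not reported here. Members and lists were chosen with earlier results of these data known.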

Additional observations from a re-analysis of the deposited data

Results flagged for a closer look

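Col4a2, a basement membrane collagen in the endothelial and pericyte list, moved past 1.5-fold in opposite directions in the 2 fractions from P5 to P8. Its log2 ratio was 0.63 in Cd73NC, where FPKM went from 9.81 to 15.8, and -0.88 in Cd73PC, where FPKM went from 6.86 to 3.26. With 1 library per condition the difference between the fractions was not tested.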

How the results depend on the processing

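The counts of 1777 rows higher and 1657 lower at P8 changed by over 1.5 times only at a limit of 2-fold, which left 929 higher and 619 lower by construction. Under the other 11 alternatives they ranged from 1259 to 2047 and from 1208 to 2064, and requiring bounds apart left 1737 and 1600. Leaving out rows whose FPKM lay outside their own bounds, an alternative chosen after seeing the data, gave 1509 and 1450. Scaling moved the split of calls between 1703 higher and 1730 lower (quantiles) and 1889 and 1501 (median ratio). Of 251 list medians under 9 alternatives, 246 moved by less than 1.5-fold. The other bipolar list went from 3.46 to 4.80 with a pseudocount of 0.1. With FPKM of at least 5 the ganglion list went from -0.30 to -2.68 and the horizontal list from 0.94 to 1.99. These are the ratios of Ebf3 and of Prox1, the only genes of the 2 lists left, and do not describe the lists. The bipolar transcription factor list (2.09) and the transmitter receptor list (2.07) changed order with a pseudocount of 0.1 (2.15 and 2.40), with FPKM of at least 5 (2.09 and 2.43), and with the rod share subtracted (2.12 and 2.13). Without a filter the transmitter receptor list was at 1.52, just below the erythroid list at 1.53, so its place beside the bipolar lists depends on the filter. When the rod share (11.4% of Cd73PC at P5 and 7.42% at P8) was subtracted from Cd73NC, the rod list median was -0.70 in place of 0.11, by construction of that alternative. The horizontal list went from 0.94 over its 2 members to -0.064 over its 7 genes without a filter. No paired analysis was possible because each stage had 1 library, and for the same reason no replicate could be left out.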

Other observations

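Eef1a2 was at FPKM 10.5 at E15, 20.4 at E18, 4.26 and 1.31 in Cd73NC at P2 and P5, and 48.3 at P8. Ly6h, a neuronal surface protein, was at 33.6, 42.9, 3.97, 1.91, and 57.9 in that order, and Syt13, a synaptotagmin, at 43.7, 21.0, 0.914, 0.520, and 14.1. Ly6h and Syt13 were chosen after their values were seen, and the embryonic libraries were of unsorted retina.

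A small set of rows moved in opposite directions in the 2 fractions from P5 to P8: 24 were higher in Cd73NC and lower in Cd73PC, and 16 the reverse. Over all rows of each comparison, 14.1% were higher and 13.2% lower in Cd73NC, and 5.92% and 8.54% in Cd73PC. Whether the 24 and 16 are more or fewer than these shares would give was not tested. Tle2, a transcriptional co-repressor chosen after its values were seen, went from 2.64 to 12.1 in Cd73NC and was at 9.45 and 4.88 in Cd73PC. Cabp1, a calcium-binding protein chosen likewise, went from 46.7 to 90.1 and was at 25.3 and 15.3.

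Bc1, a short noncoding RNA with 2 rows of that symbol, was at 50.5 at P5 and listed at 0 at P8, and LOC100302567 was listed at 0 at P5 and at 46.5 at P8. Their bounds overlapped, and no fold is given.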
